A study of Rattus norvegicus with 27 samples.

Results

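The comparison described here is that of a strain effect between 2 brain regions. It asks whether the difference between diabetic Goto-Kakizaki rats and Wistar controls was the same in the hippocampus as in the striatum. It uses 12 of the 27 arrays of the series, namely 3 arrays in each of 4 groups, and every probe was given the difference in the hippocampus minus the difference in the striatum, on the log2 scale. A positive value means that the signal of Goto-Kakizaki rats, relative to controls, was higher in the hippocampus than in the striatum. All animals were male and 10 weeks old. Controls were Wistar rats with an average blood sugar of 7.64 mmol/l, and Goto-Kakizaki rats, a model of type 2 diabetes, had 13.9 mmol/l. The labels name no agent for either group. Every array held RNA pooled from 3 animals, and the methods give 9 animals per group whose brains supplied all regions, so that the regions share animals. Strain and diabetes cannot be told apart in this design.

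Goto-Kakizaki rats were bred from Wistar rats by selection for high blood glucose, and they become diabetic without obesity. The hippocampus, which serves learning and memory, carries insulin receptors and is made up largely of glutamatergic pyramidal and granule neurons. The striatum is made up largely of GABAergic medium spiny neurons that receive dopamine, and the study took it as a reference region in which it presumed no action of insulin.

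The tissue labels were checked on marker genes. In controls the log2 signal of the hippocampus minus that of the striatum was negative for all 8 striatal markers, for example -3.65 for Ppp1r1b, a phosphoprotein of dopamine signalling, and -6.56 for Adora2a, an adenosine receptor of medium spiny neurons. It was positive for all 7 hippocampal markers with a probe, from 0.99 for Tdo2 to 3.71 for Neurod6, a transcription factor of pyramidal neurons. None of the 8 striatal and 5 hippocampal markers tested was called for the difference of the strain effect, compared with 0.473% of all probes tested. For so few genes a count of 0 is near that share. Neurod6 was called lower in the striatum, by 1.12 (limma adjusted p = 0.00365). It came close for the difference (1.39, limma adjusted p = 0.0503). The share of probes detected over background lay between 67.4% and 74.3% on these 12 arrays. The spread between pools was not alike in the regions, because the median SD of a probe came to 0.086 for Goto-Kakizaki hippocampus and 0.106 for its controls but to 0.287 and 0.251 for the striatal groups. All 3 arrays of Goto-Kakizaki striatum lay on 1 slide together with control pool 1, while control pools 2 and 3 lay on other slides. In the hippocampus, Goto-Kakizaki pool 1 shared slide 2 with control pools 1 and 3. Goto-Kakizaki pools 2 and 3 of this region lay on slide 3 and its control pool 2 on slide 1.

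Of 28970 probes tested, 137 (0.473%) differed between the regions in their strain effect by at least 2-fold at an adjusted p below 0.05 (limma, Benjamini-Hochberg over all probes tested). The difference was positive for 59 (0.204%) and negative for 78 (0.269%). Goto-Kakizaki rats differed from controls at 555 probes in the hippocampus (1.92%), of which 226 were higher (0.78%) and 329 lower (1.14%). In the striatum they differed at 910 probes (3.14%), of which 474 were higher (1.64%) and 436 lower (1.5%). Calls of both regions met at 369 probes, which is 66.5% of the hippocampal and 40.5% of the striatal calls, and 368 of these moved the same way. Of the 186 probes called in the hippocampus but not in the striatum, only 20 passed the test of the difference itself. Of the 541 called in the striatum but not in the hippocampus, 33 did. These counts rest on 1 spread per probe that all groups share, although the striatal pools varied more. With the t-test of the methods, which uses the spread of the groups compared, 226 hippocampal and 0 striatal probes were called after Benjamini-Hochberg adjustment. The study itself, with its own filters, reported far fewer changed probes in the striatum than in the hippocampus. Which region has more calls thus depends on the error estimate.

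Of the 137 probes, 78 were called in neither region by itself, 33 in the striatum alone, 20 in the hippocampus alone and 6 in both. The fitted effects had opposite signs at 108 of them, near-zero effects included, and selection for a large difference favours opposite signs. Probes with a positive difference had a median hippocampal effect of 0.38 and a median striatal effect of -0.79, and those with a negative difference had -0.60 and 0.75. The balance of directions depends on how the arrays are scaled: 201 positive and 67 negative calls were made when each array was set to its 50th percentile, and 86 and 54 after quantile normalization, compared with 59 and 78 at the 75th percentile. The median difference over all probes was -0.043 at the 75th percentile and 0.134 at the 50th, and 0.193 after normexp background correction.

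**Figure D1:**
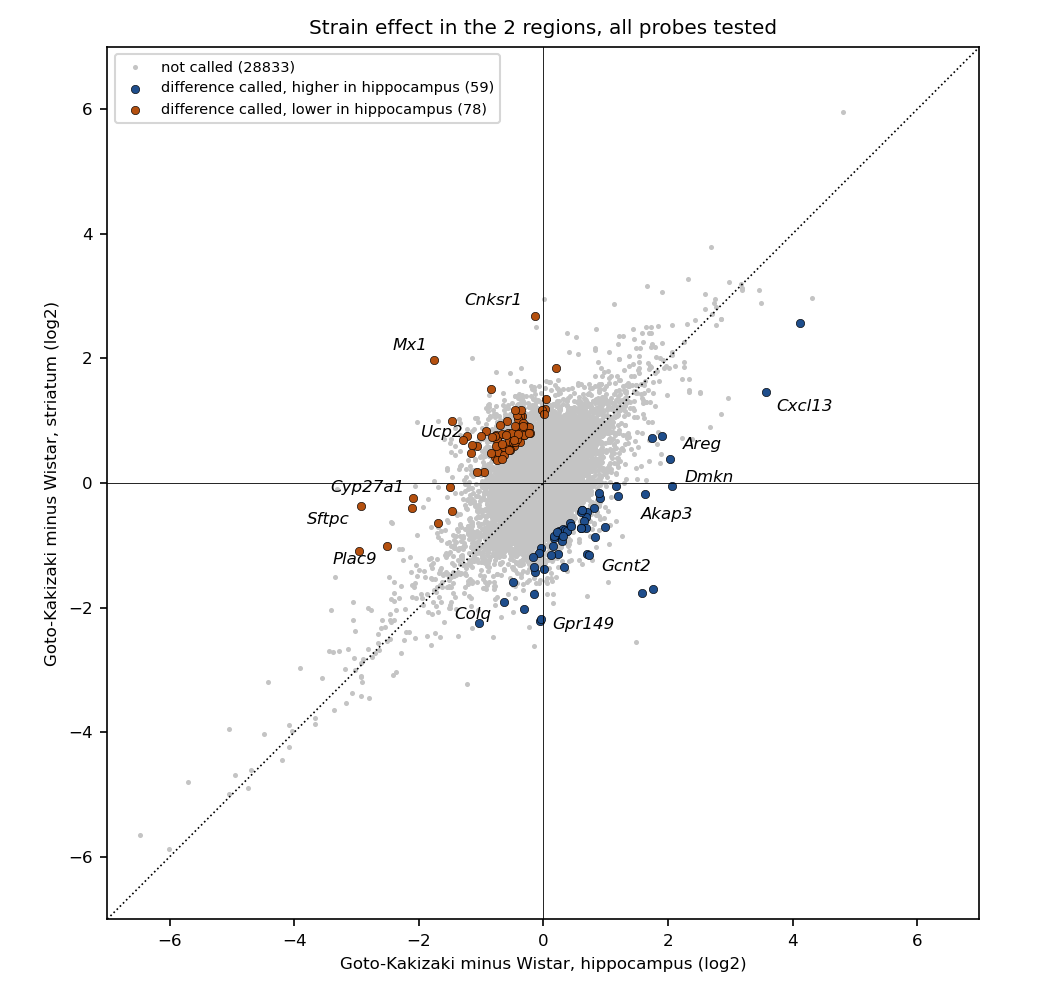
Goto-Kakizaki minus Wistar signal (log2) of every probe tested, in the hippocampus (x axis) and in the striatum (y axis), with the dotted line marking equal effects. The 59 probes with a called positive difference (blue) lie below the line and the 78 with a negative one (orange) above it, most of them in the quadrants of opposite sign.

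The 4 named genes whose calls changed least with the choices of analysis were Gcnt2, Gpr149, Cnksr1 and Akap3. Of these, Gcnt2 (1.59) and Gpr149 (1.90) were also called after normexp background correction, whereas Cnksr1 (-1.30, limma adjusted p = 0.758) and Akap3 (2.08, adjusted p = 0.217) were not. All 4 were called without each of the 12 pools in turn, after correction for the base composition of the probe and with the 12 arrays fitted alone. This held for 7 of the 137 probes, the other 3 being probes with no current gene symbol. The sequences of their probes are shown because base composition went with the difference over all probes, as described further on. They are printed as the array files give them, with G and C in capitals.
Gcnt2: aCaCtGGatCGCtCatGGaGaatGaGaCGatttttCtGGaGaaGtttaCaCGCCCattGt
Gpr149: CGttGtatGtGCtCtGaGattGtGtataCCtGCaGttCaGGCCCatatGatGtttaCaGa
Cnksr1: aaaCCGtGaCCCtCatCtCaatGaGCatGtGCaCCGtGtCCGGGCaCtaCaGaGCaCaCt
Akap3: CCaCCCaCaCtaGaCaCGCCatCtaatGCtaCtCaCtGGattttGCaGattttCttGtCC
Each is a 60-base oligonucleotide, and G and C make up 45% of the bases for Gcnt2, 43.3% for Gpr149, 55% for Cnksr1 and 46.7% for Akap3.

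Gcnt2 encodes an enzyme that adds branches to poly-N-acetyllactosamine chains of glycans. Its log2 signal relative to the 75th percentile of the array was -0.04, 0.00 and 0.03 in Goto-Kakizaki and -0.68, -0.83 and -0.71 in control hippocampus, and 1.24, 1.15 and 0.94 in Goto-Kakizaki and 2.06, 2.53 and 2.19 in control striatum. The groups did not overlap in either region, and Goto-Kakizaki rats were the higher in the hippocampus and the lower in the striatum. The effects were 0.74 (SE 0.12) and -1.15 (SE 0.12), and their difference of 1.89 (SE 0.17, limma adjusted p = 7.97e-06) had the smallest adjusted p of all genes named here.

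Gpr149 encodes an orphan receptor of the G protein-coupled kind and was called in the striatum and not in the hippocampus. Its signal was 0.18, -0.16 and 0.26 in Goto-Kakizaki and 2.06, 2.47 and 2.39 in control striatum, a change of -2.21 (SE 0.17, adjusted p = 7.66e-09). In the hippocampus it was -0.77, -0.81 and -0.96 against -0.67, -0.81 and -0.89, so that the groups overlapped (effect -0.06, SE 0.17). The difference was 2.15 (SE 0.24, adjusted p = 9.01e-05). In the prefrontal cortex the same probe had an effect of -1.89.

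Cnksr1 encodes a scaffold protein of Ras signalling, and its pattern is the opposite one. Control striatum had -4.04, -4.17 and -4.03, and Goto-Kakizaki striatum -1.61, -1.14 and -1.43. All hippocampal pools of both strains lay between -4.28 and -3.91, close to control striatum. The striatal effect was 2.68 (SE 0.21) and the difference -2.81 (SE 0.30, adjusted p = 6.5e-05), which became -1.30 after normexp background correction. In the prefrontal cortex the effect was 0.15.

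Akap3, an A-kinase anchoring protein best known from sperm, was one of the genes that the study had chosen in the hippocampus on these samples. It rose there from -1.54, -1.71 and -1.68 in controls to -0.02, 0.06 and -0.07 in Goto-Kakizaki rats, by 1.64 (SE 0.15). In the striatum it was dimmer and overlapped, at -3.08, -2.98 and -3.22 in controls and -3.65, -2.90 and -3.27 in Goto-Kakizaki rats. The difference was 1.82 (SE 0.22, adjusted p = 0.00025). Streptozotocin-treated rats, set against the same controls, had 1.17 in the hippocampus and -0.42 in the striatum.

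**Figure D2:**
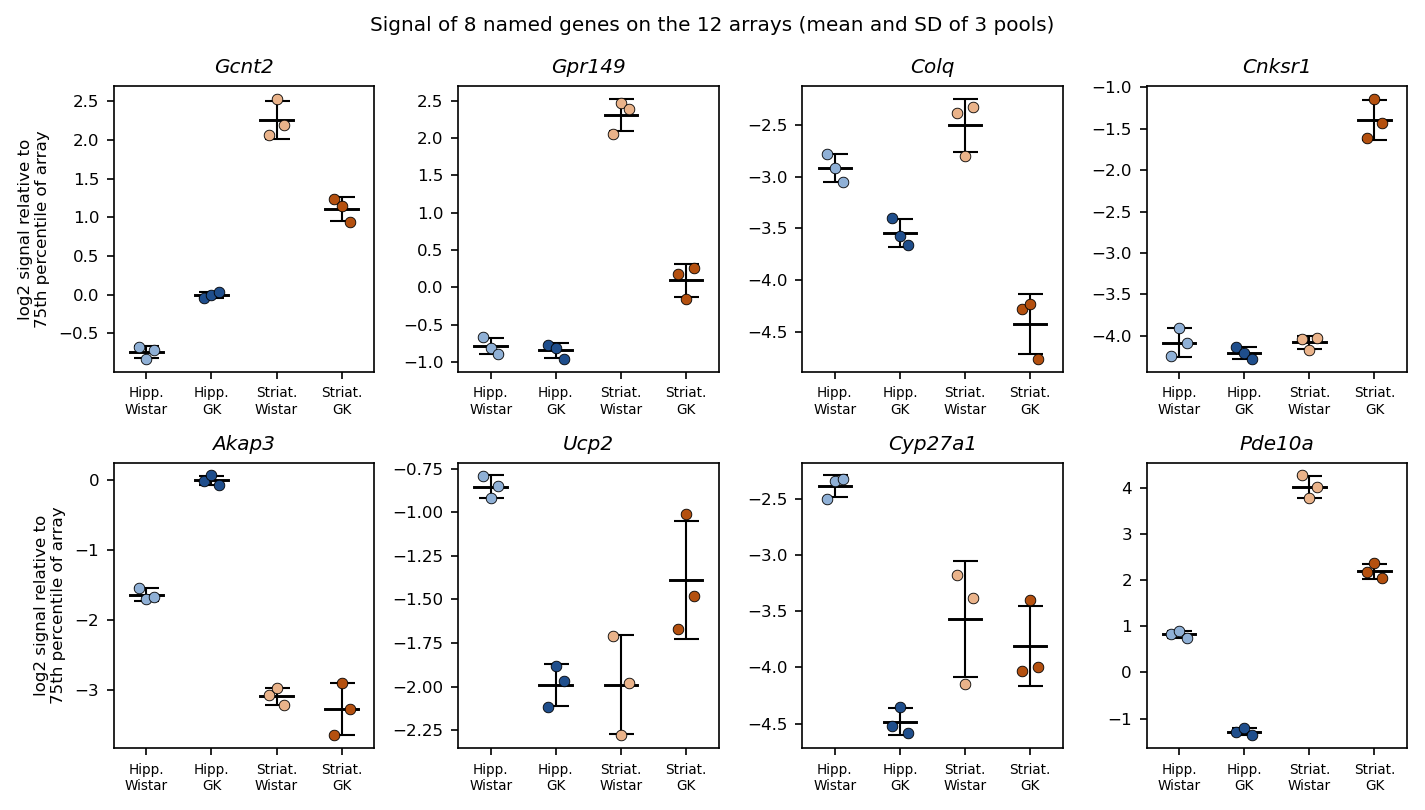
Log2 signal relative to the 75th percentile of the array (y axis) in the 3 pools of each of the 4 groups (points) with the mean and SD of the pools (lines). Gcnt2 runs in opposite directions in the regions, Gpr149, Colq and Cnksr1 move most in the striatum, Akap3, Ucp2 and Cyp27a1 most in the hippocampus, and Pde10a falls alike in both.

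At 85 of the 137 probes the striatal effect was the larger. Selection for a large difference favours the region whose pools vary more, here the striatum, so this count cannot tell which region carries the change. Colq, the collagen tail that anchors acetylcholinesterase, fell in the striatum from -2.39, -2.80 and -2.33 to -4.28, -4.23 and -4.76, by 1.92 on the log2 scale (SE 0.14), while the hippocampus had an effect of -0.63 (SE 0.14). The difference of 1.29 (SE 0.19, adjusted p = 0.0029) was called without each pool in turn. After normexp background correction it was 1.06, and it was called neither then nor with the 12 arrays alone. Napepld, the enzyme that releases anandamide and related N-acylethanolamines, had an effect of -0.92 (SE 0.12) in the striatum, under the 2-fold threshold, and 0.30 in the hippocampus, and its difference was 1.22 (SE 0.17, adjusted p = 0.0014). That difference was 1.12 after normexp background correction, where it was not called.

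Mamdc2, a secreted proteoglycan, fell by 1.79 in the striatum, where it was above background on no Goto-Kakizaki array and on all 3 control arrays, so that the fold is at least 2.34. Its fitted difference of 1.64 rests on that dim group and was 0.91 after normexp background correction. Its second probe was also called, with a difference of 1.17. Atp6ap2, an accessory protein of the vacuolar proton pump, had a difference of 1.27 (SE 0.25), but its other 2 probes had 0.87 and 0.81 and were not called. Arhgap31 rose in the striatum by 1.03 (SE 0.21) and had a difference of -1.44 (SE 0.30) that became 0.111 after normexp background correction. Reln, the extracellular glycoprotein of interneurons, had an effect of -0.79 in the striatum and 0.22 in the hippocampus, and its difference was called at both probes, with 1.01 and 1.05. The probe with 1.01 was called in only 4 of the 12 omissions of a pool. It was not called after quantile normalization, after normexp background correction (0.73) or with the 12 arrays alone.

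In the hippocampus the larger effects included those of a pair of mitochondrial proteins. Ucp2, a carrier of the inner mitochondrial membrane, was -2.12, -1.88 and -1.97 in Goto-Kakizaki and -0.79, -0.92 and -0.85 in control hippocampus, and -1.67, -1.01 and -1.48 against -1.71, -2.28 and -1.98 in the striatum. The groups did not overlap in either region and were ordered oppositely. The effects were -1.14 (SE 0.18) and 0.60 (SE 0.18), and the difference was -1.74 (SE 0.25, adjusted p = 0.0021), or -1.06 after normexp background correction, where it was not called.

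Cyp27a1, the mitochondrial sterol 27-hydroxylase that makes 27-hydroxycholesterol, fell in the hippocampus from -2.50, -2.34 and -2.33 to -4.52, -4.35 and -4.58, by 2.09 (SE 0.22). In the striatum its groups overlapped, with an effect of -0.24 (SE 0.22), and the difference was -1.85 (SE 0.31, adjusted p = 0.0077), or -0.64 (adjusted p = 0.919) after normexp background correction. Ptprv, a receptor-type tyrosine phosphatase, had -1.17 in the hippocampus and 0.49 in the striatum, a difference of -1.66 (SE 0.27, adjusted p = 0.0077). That difference was -1.39 after normexp background correction, where it was not called.

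Dmkn, a secreted protein known from skin, rose in the hippocampus by 2.07 (SE 0.21) and had -0.04 in the striatum, where its signal was higher than in the hippocampus in every pool. Areg, a ligand of the epidermal growth factor receptor, rose by 2.03 (SE 0.22) in the hippocampus and had 0.38 in the striatum. Streptozotocin-treated rats had 1.43 for Areg in the hippocampus against the same controls. Plac9 fell in both regions, by 2.51 in the hippocampus and by 1.01 in the striatum, and its difference of -1.50 (SE 0.30) is one of size and not of direction. After normexp background correction Dmkn had a difference of 1.47, Areg 1.14 and Plac9 -1.57, none called. The difference of Areg was called in 9 of the 12 omissions of a pool.

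Several of the largest differences came from dim probes. Sftpc (surfactant protein C), Tfeb (a transcription factor of lysosome genes) and Stom (a membrane protein of red cells and other cells) were above background on no array of Goto-Kakizaki hippocampus, where their folds were at least 1.66, 1.72 and 1.54. Their fitted differences of -2.56, -2.47 and -1.98 are against background and became 0.074, -0.03 and 0.165 after normexp background correction. That correction adds 50 units to every signal, which by itself draws the differences of dim probes towards no change. A second probe of Sftpc had a difference of -0.40 and one of Tfeb -0.26, neither called, and a second probe of Tob2, a regulator of cell division with -1.67 at the named probe, had 0.02. Tob2 itself changed sign after normexp background correction (0.063). Cxcl13, the B cell attracting chemokine, was below background on all control arrays and rose at least 3.62-fold in the hippocampus and at least 1.67-fold in the striatum. With only a lower bound in each region, the size and direction of its difference are undetermined, and the fitted 2.12 is no measurement of it (normexp adjusted p = 0.79). Of the 137 called probes, 18 were above background on no array of at least 1 of the 4 groups.

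Mx1, an interferon-induced antiviral GTPase, had a fitted difference of -3.73 (SE 0.78) that rests on striatal controls at background and became -0.94 (adjusted p = 0.919) after normexp background correction. Its signal was -3.87, -3.82 and -4.34 in Goto-Kakizaki and -2.46, -2.31 and -1.99 in control hippocampus. It was -4.71, -4.86 and -5.64 in Goto-Kakizaki striatum and below background on all striatal control arrays, a rise of at least 1.45-fold. The hippocampal effect was -1.75 (adjusted p = 0.072), and the difference was called in 3 of the 12 omissions of a pool. Streptozotocin-treated rats, compared with the same controls, had -2.07 and 2.21 in the 2 regions, so that the control pools were the high ones in the hippocampus and the low ones in the striatum in both comparisons.

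The remaining named genes had effects of opposite sign that mostly stayed under the 2-fold threshold in each region. Rgs4 and Rgs2, which shorten signalling by G proteins, had 0.61 and 0.60 in the hippocampus and -0.73 and -0.71 in the striatum, and differences of 1.34 (SE 0.22) and 1.32 (SE 0.24). Both probes of Rgs4 were called. Zap70, a kinase of the T cell receptor, had -0.76 and 0.77 and a difference of -1.53 (SE 0.22), and it was called without each pool in turn. Gipc2, the fast myosin heavy chain Myh4, the synaptic scaffold protein Ppfia3, the GTPase-activating protein Sgsm2 and the cytokine receptor Il21r, with differences of 1.23, 1.70, -1.75, -1.53 and -1.48, were each called in 3 or 4 of the 12 omissions of a pool. Myh4 was above background on no array of Goto-Kakizaki striatum and on 2 of 3 of its controls, so that its value is against background. After normexp background correction Ppfia3 had -0.40, Sgsm2 -0.82 and Il21r 0.092, none called. Rgs4 had 1.04, Rgs2 1.13 and Zap70 -1.39 after this correction, and these were not called either. A second probe of Sgsm2 was called as well (-1.37), and one each of Gipc2 (0.98) and Ppfia3 (-1.67) was not.

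**Figure D3:**
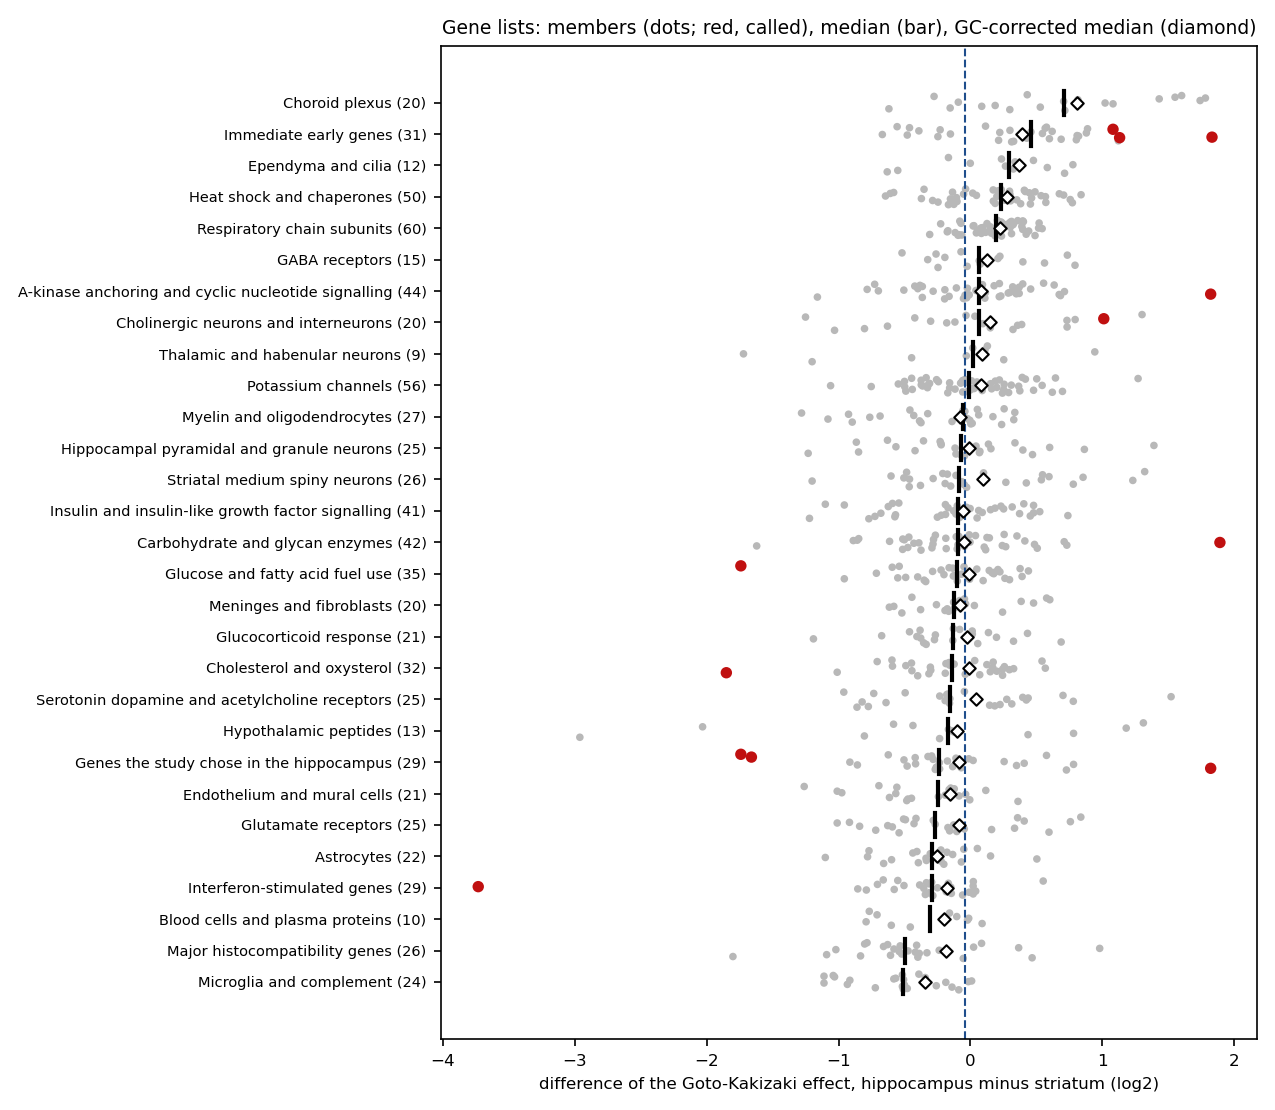
Difference of the Goto-Kakizaki effect, hippocampus minus striatum (log2, x axis), for the members of 29 gene lists (dots, number tested in brackets; red dots were called), with each list's median (bar), its median after correction for probe GC content (diamond) and the median of all probes tested (dashed line, -0.043). Choroid plexus and immediate early genes lie highest, and microglia and major histocompatibility genes lowest.

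Immediate early genes, which neurons switch on within minutes of activity, had a median difference of 0.46 compared with -0.04 over all probes. Of the 31 members tested, 3 were called, all positive, and 23 had a positive difference, compared with 59 positive calls (0.204%) and 13273 positive differences among all 28970 probes. No test of the list as a whole was made. Egr1, an activity-induced transcription factor, was 3.27, 2.87 and 3.01 in Goto-Kakizaki and 2.71, 2.70 and 2.41 in control hippocampus, and 3.65, 3.81 and 3.69 against 4.08, 4.82 and 4.29 in the striatum. The groups did not overlap in either region, and the difference was 1.12 (SE 0.23, adjusted p = 0.03). Nr4a1, a nuclear receptor of the same kind, had 1.07 (SE 0.21, adjusted p = 0.024), and Egr2 had 1.83 (SE 0.44, adjusted p = 0.046) with a fall of 1.13 in the striatum. Egr1 was called in 6, Nr4a1 in 7 and Egr2 in 2 of the 12 omissions of a pool. After normexp background correction Egr1 had 0.84, Nr4a1 0.74 and Egr2 1.42, none called. None of the 3 was called with the 12 arrays alone, and Nr4a1 was not called after quantile normalization. Streptozotocin-treated rats, which share the controls, had 0.54 in the hippocampus and -0.50 in the striatum for Egr1, 0.33 and -0.36 for Nr4a1, and 0.76 and -0.45 for Egr2. The median of the list was 0.39 after correction for probe GC content.

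Calls in a region outnumbered calls for the difference among immune genes, as they did over all probes (1.92% and 3.14% against 0.473%). Among 29 interferon-stimulated genes, 7 rose and 1 fell in the hippocampus, and 11 rose and 1 fell in the striatum, but Mx1 alone was called for the difference. Mx2, an antiviral GTPase, had 2.07 and 2.05, Rsad2 1.05 and 1.02, and Irf7, a transcription factor of the interferon response, 1.45 and 2.31. Among 26 major histocompatibility genes 2 rose in the hippocampus and 9 in the striatum, and none was called for the difference, with a median of -0.50 that became -0.18 after correction for GC content. Near-identical copies of these genes can share signal. Among 24 microglial and complement genes the median was -0.51 (-0.35 corrected), and none was called. At an unadjusted p below 0.05 there were 9 major histocompatibility and 10 microglial genes, and 5400 of all 28970 probes.

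For lists of this size a share of 0.473% amounts to less than 1 call, so that a count of 0 is near the background. None of 41 genes of insulin and insulin-like growth factor signalling, 60 respiratory chain subunits or 56 potassium channels was called for the difference (limma). Nor was any of 25 glutamate receptors, 15 GABA receptors or 26 genes of medium spiny neurons. At an unadjusted p below 0.05 there were, in this order, 12, 4, 12, 10, 4 and 3 of them, and 5400 of all 28970 probes. The respiratory chain subunits had a median of 0.20, with 50 of 60 positive, compared with 13273 of all 28970 probes. No subunit was called in either region. The insulin list had a median of -0.10, near that of all probes. Grb14, an adaptor that inhibits the insulin receptor, was the only member called in a region, with -1.14 in the striatum and -0.41 in the hippocampus (difference 0.74, adjusted p = 0.0505).

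Of 29 tested probes that the study had chosen in the hippocampus on these samples, 3 were called for the difference, namely Akap3, Ucp2 and Ptprv. In the striatum 11 of the 29 were called higher and 8 lower, compared with 10 and 11 in the hippocampus. Among all probes tested, 0.473% were called for the difference. The shares called higher and lower were 1.64% and 1.5% in the striatum, and 0.78% and 1.14% in the hippocampus. Because the choice was made on these hippocampal samples, these counts are not independent evidence. Pde10a, the cyclic nucleotide phosphodiesterase of medium spiny neurons, fell by 2.11 in the hippocampus and by 1.83 in the striatum (difference -0.28, SE 0.21, adjusted p = 0.49). Chi3l1, a secreted chitinase-like protein, fell by 2.11 and by 1.63 (difference -0.48, SE 0.23), and Sncg, a synuclein, by 2.39 and by 1.77 (difference -0.62, SE 0.46). Streptozotocin-treated rats, set against the same controls, had -1.64 and -1.48 for Sncg, so that its control pools were the high ones in both comparisons. They had -0.01 and -0.04 for Pde10a and 0.01 and 0.21 for Chi3l1. The striatal control pools of Sncg were scattered, at 1.72, 0.37 and 0.18.

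Markers of tissue next to the dissected regions were measured beside these results. The summed level of 26 choroid plexus genes, on a linear scale where 1 is the 75th percentile of the array, ran from 33.9 to 212 in Goto-Kakizaki and from 12.3 to 165 in control hippocampus, and from 17.1 to 39.2 and from 17.1 to 22.7 in the striatum. The median difference of its 20 tested genes was 0.71, and none was called. In the striatum 7 of the 26 were above background on no Goto-Kakizaki array and 7 on no control array, not all of them the same genes. The 11 genes of blood cells and plasma ran from 76.8 to 93 and from 57.1 to 61.8 in the hippocampus, and from 107 to 146 and from 72.2 to 105 in the striatum, in each case higher in Goto-Kakizaki rats. Of the 10 tested, 2 were called higher in the hippocampus and 5 in the striatum, compared with 0.78% and 1.64% of all probes. The 14 hypothalamic peptides ran from 11.1 to 59.9 in Goto-Kakizaki striatum, compared with 11 to 13.4 in its controls and 10.1 to 16.4 in hippocampal pools. The part of these tissues in the differences was not tested. In pooled tissue, fewer cells of a type and less RNA per cell cannot be told apart.

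The base composition of the probe moved with the difference over the whole array. The median difference fell from 0.27 among the 778 probes with up to 30% G and C to -0.57 among the 310 with above 60%, being positive in the bins up to 40% and negative above. In the hippocampus the median effect fell from 0.09 to -0.20 over this range, and in the striatum it rose from -0.19 to 0.36. Across the 28970 probes, which are not independent replicates, the rank correlation of GC content with the difference was -0.423. Called probes with a positive difference had on average 38.6% G and C, and those with a negative one 49.6%. Array by array, the rank correlation of GC content with the deviation from the controls of the region was -0.267 to -0.244 in the 3 Goto-Kakizaki hippocampal pools, and 0.438 in Goto-Kakizaki striatum pool 2, compared with 0.097 and 0.062 in pools 1 and 3. Control pools lay between -0.066 and 0.122 in the hippocampus and between -0.054 and 0.178 in the striatum.

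Named probes from the ends of the range of GC content, apart from the 4 shown before, are printed with G and C in capitals. Gipc2 and Egr1 had the lowest GC content and positive differences. Ptprv and Tob2 had negative differences, and their 55% was the highest among the named probes. Other named probes shared this value, among them that of Colq, whose difference was positive (1.29).
Gipc2: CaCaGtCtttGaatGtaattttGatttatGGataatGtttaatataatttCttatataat
Egr1: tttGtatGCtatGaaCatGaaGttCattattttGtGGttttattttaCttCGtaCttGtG
Ptprv: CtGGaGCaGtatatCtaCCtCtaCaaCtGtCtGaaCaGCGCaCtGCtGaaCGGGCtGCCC
Tob2: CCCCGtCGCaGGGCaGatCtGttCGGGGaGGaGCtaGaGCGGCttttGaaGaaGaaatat
G and C make up 18.3%, 28.3%, 55% and 55% of their bases. When the median deviation of each array within 13 bins of GC content was taken off, a step chosen after the data were seen, 101 probes were called, 46 positive and 55 negative, and 85 of them were among the 137. Gipc2 then had a difference of 0.97 and Egr1 0.87 (adjusted p = 0.046), both under the 2-fold threshold, as was Nr4a1 with 0.94, while Gcnt2 had 1.95, Gpr149 2.22, Cnksr1 -2.49, Akap3 2.00 and Ucp2 -1.51.

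**Figure D4:**
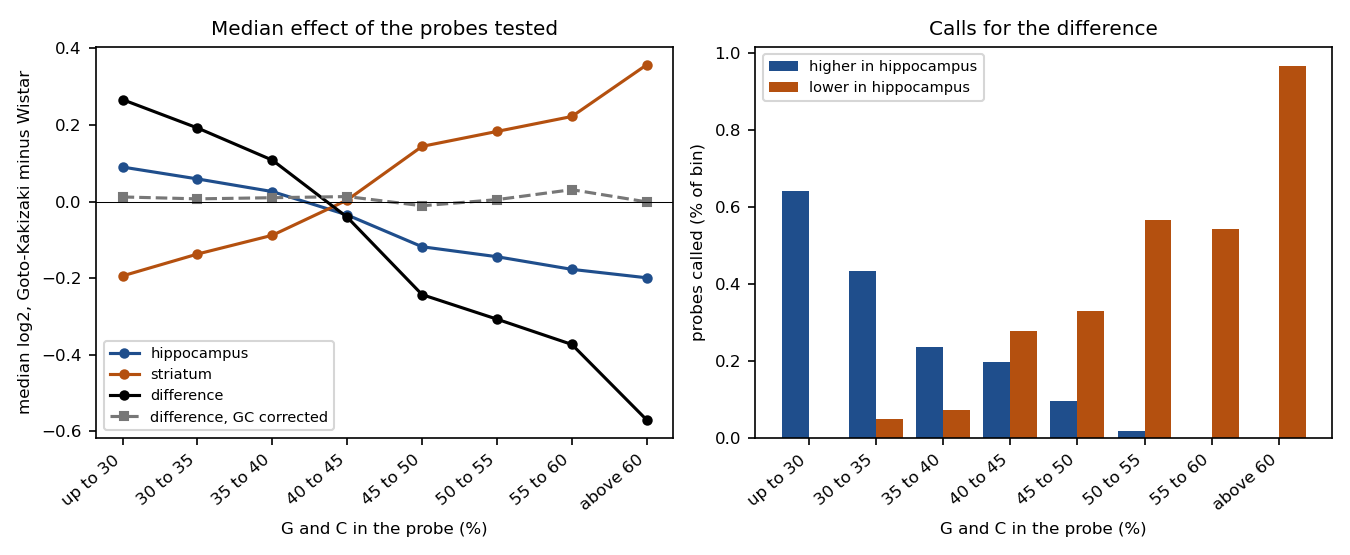
Left, median Goto-Kakizaki effect (log2) of the tested probes in 8 bins of probe GC content for the hippocampus, the striatum, their difference and the difference after correction; right, percent of the probes in each bin called for the difference. The uncorrected difference falls from 0.27 to -0.57 and the corrected one stays between -0.01 and 0.03, while positive calls lie mostly in probes of low and negative calls in probes of high GC content.

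The number of calls depended on the source of the error estimate and on single pools. With the spread taken from the 12 arrays alone, 8 probes were called, and after normexp background correction 3. Without Goto-Kakizaki hippocampus pool 3 there were 32 calls, and without striatal control pool 1, which shared its slide with the Goto-Kakizaki striatum, there were 628. Without striatal control pools 2 and 3, which lay on other slides, control striatum has 1 pool whose spread is assumed to be that of the other groups, and 13 probes were called, 11 of them among the 137, including those of Gcnt2, Gpr149, Cnksr1, Akap3, Colq, Napepld and Zap70. On slides 2 and 4 alone, which hold both strains of a region but only 1 pool each of Goto-Kakizaki hippocampus and control striatum, no probe passed (890 at an unadjusted p below 0.05), but the differences were 1.61 for Gcnt2, 1.98 for Gpr149, -2.62 for Cnksr1, 1.79 for Akap3 and -1.63 for Ucp2.

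**Figure D5:**
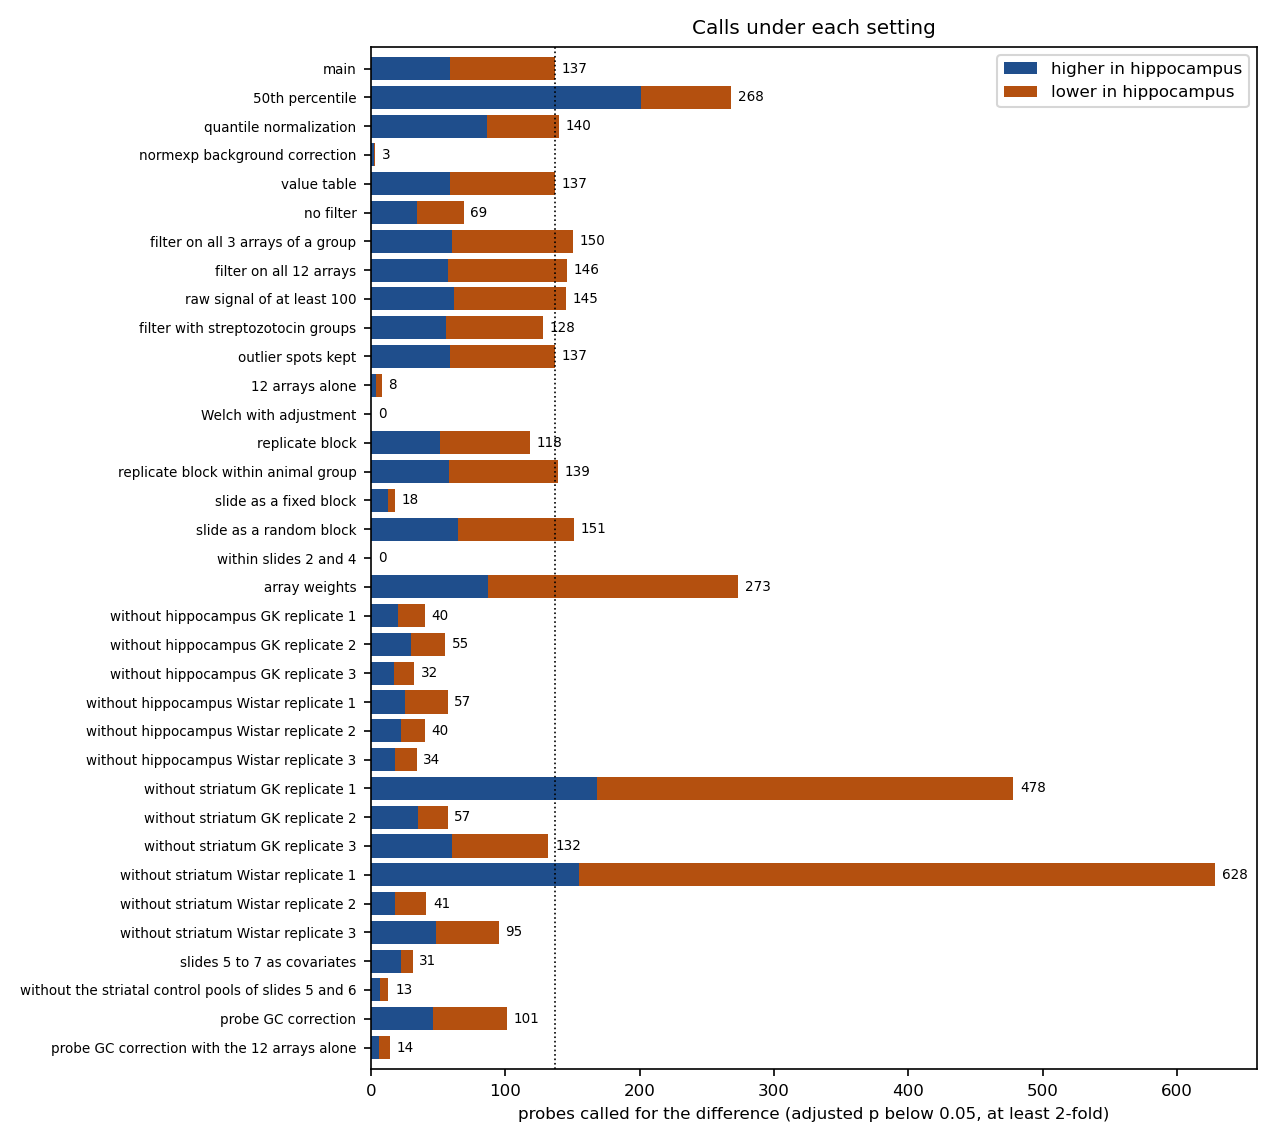
Number of probes called for the difference (x axis; blue, positive; orange, negative) as reported (top bar) and under other settings (y axis; GK, Goto-Kakizaki). The count of 137 becomes 3 after normexp background correction and 628 without striatal control pool 1.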

How the data were processed

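The authors labelled RNA with a single dye, hybridised it to rat whole genome arrays and extracted signals with Agilent Feature Extraction 9.1 (per the submitters' notes). The intensity they deposited is, per the file headers, background-subtracted and corrected for trends within an array with no scaling from array to array, and their value table repeats it. Raw mean and local background intensities were used for 1 alternative, the normexp background correction with an offset of 50 units. Here, log2 of the processed signal minus log2 of the 75th percentile of the array was taken for 41012 probes; 20035 could be named through the RefSeq table of GRCr8. Outlier spots were left out. Probes entered the tests where each region had a group in which 2 or more of its 3 arrays were flagged as clearly over background (28980; 10 had no value left in a group). The means of all 9 groups were estimated on the 27 arrays with limma 3.58.1, leaving 18 degrees of freedom for the spread (R 4.3.3; values and figures with Python 3.11.15, pandas 2.3.3, numpy 2.4.6, matplotlib 3.10.9) and the steps were tested on simulated data. A probe was called at an adjusted p below 0.05 and at least 2-fold.

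Bounds ("at least") set the mean of the brighter group against, per array, the higher of the lowest signal well above background and the signal of the dim probe. Named genes were the 15 largest differences in each direction among called probes with a symbol, up to 3 called members of each of 29 lists, and, of 30 probes that the study chose, every called one and the 3 others with the largest hippocampal change; a list gene was represented by its brightest probe. Other probes are given where they disagree. Members and lists were chosen with earlier results of these data known. The number of arrays limits the precision. Alternatives are given in the closing section. The array files name no genome build, so no coordinates are printed.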

Additional observations from a re-analysis of the deposited data

Results flagged for a closer look

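The test of the difference itself was passed by 137 probes, whose strain effect in the hippocampus was unlike that in the striatum. Among the named genes the fitted difference (log2, hippocampus minus striatum) was positive for Gpr149 (2.15), Cxcl13 (2.12), Dmkn (2.11), Gcnt2 (1.89), Egr2 (1.83), Akap3 (1.82), Myh4 (1.70), Areg (1.65), Mamdc2 (1.64), Rgs4 (1.34), Rgs2 (1.32), Colq (1.29), Atp6ap2 (1.27), Gipc2 (1.23), Napepld (1.22), Egr1 (1.12), Nr4a1 (1.07) and Reln (1.01). It was negative for Mx1 (-3.73), Cnksr1 (-2.81), Sftpc (-2.56), Tfeb (-2.47), Stom (-1.98), Cyp27a1 (-1.85), Ppfia3 (-1.75), Ucp2 (-1.74), Tob2 (-1.67), Ptprv (-1.66), Sgsm2 (-1.53), Zap70 (-1.53), Plac9 (-1.50), Il21r (-1.48) and Arhgap31 (-1.44). Groups of 3 pools are too small for a check of single outlying samples. The values of Mx1, Cxcl13, Mamdc2, Myh4, Sftpc, Tfeb and Stom rest on a group that was above background on no array.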

How the results depend on the processing

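The count of 137 probes called for the difference stayed between 101 and 151 after quantile normalization, with the deposited value table, with stricter or other filters, with outlier spots kept, with slide as a random block and after correction for probe GC content. It was 268 at the 50th percentile, 3 after normexp background correction (1972 at an unadjusted p below 0.05), 69 with no filter, 8 with the 12 arrays alone, 14 with these and the GC correction, 347 with no fold threshold and 273 with array weights, which ran from 0.067 to 398. The methods' t-test made 0 calls after Benjamini-Hochberg (2474 at an unadjusted p below 0.05) and 359 calls at 2-fold with no adjustment. With slide as a fixed block 18 probes were called, with slides 5 to 7 as covariates 31, without the striatal control pools of slides 5 and 6 there were 13, and within slides 2 and 4 there were 0 (890 at an unadjusted p below 0.05). Leaving out 1 pool at a time gave 32 to 628, the extremes coming without Goto-Kakizaki hippocampus pool 3 and without striatal control pool 1. It gave 40 and 55 without Goto-Kakizaki hippocampus pools 1 and 2, 57, 40 and 34 without hippocampal control pools 1 to 3, 478 and 57 without Goto-Kakizaki striatum pools 1 and 2, and 41 without striatal control pool 2. For the hippocampus, the 555 calls became 207 with normexp, 226 with the adjusted t-test of the methods, 1571 with no fold threshold and 320 within slides 2 and 4. For the striatum, the 910 calls became 339 with normexp, 0 with the adjusted t-test (2522 at an unadjusted p below 0.05), 4339 with no fold threshold, 566 with slide as a fixed block, 429 within slides 2 and 4, 590 with slides 5 to 7 as covariates and 495 without the striatal control pools of slides 5 and 6. Differences changed sign with normexp for Sftpc (0.074), Stom (0.165), Tob2 (0.063), Il21r (0.092) and Arhgap31 (0.111). Of genes not called, Sncg changed sign with slide as a fixed block (0.266), within slides 2 and 4 (0.061), and with slides 5 to 7 as covariates or without the striatal controls of slides 5 and 6 (0.343), and Pde10a with slide as a fixed block (0.018) and with both GC corrections (0.037). The cause was not tested. The GC corrections, the covariates for slides 5 to 7 and the omission of the striatal controls of slides 5 and 6 were chosen after seeing the data. A block for scan day could not be run, since all arrays were scanned on 1 day. Signal over background limits the dim probes.

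Equal replicate numbers were not shown to pair the samples: deviations from group means of same-numbered pools correlated at 0.09 to 0.14 between the strains in the hippocampus and at 0.07 to 0.11 in the striatum, and between regions, which share animals, at -0.0036 to 0.035 in Goto-Kakizaki rats and -0.070 to 0.097 in controls. With the replicate number as a block (replicate block) 118 probes were called, 107 of them among the 137, and 139 with it within each animal group, 103 of them among the 137. Of the named genes, Ppfia3 lost its call with the replicate block, Mx1 and Myh4 with the block within animal group, and Stom with both.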
